A study of Homo sapiens with 12 samples.

Results

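The aldehyde dehydrogenases described here are 10 genes, ALDH1A1, ALDH1A2, ALDH1A3, ALDH1B1, ALDH2, ALDH3A1, ALDH3A2, ALDH3B1, ALDH7A1 and ALDH9A1. They were taken with all 19 of their probe sets that the platform annotation gives a single gene symbol. These 19 stand among 41097 such probe sets for 19775 genes, on an array of 54675 probe sets (Affymetrix Human Genome U133 Plus 2.0). RNA was measured on 12 arrays of IGROV-1 cells, a line grown out of an ovarian carcinoma, with 3 arrays in each of 4 groups. The groups shCXCR4 I and shCXCR4 II carry plasmids with 2 different short hairpin RNAs against the chemokine receptor CXCR4, and each is an individual clone. Mock cells carry the plasmid with a scrambled RNA and are a pool of clones. These 3 groups were transfected with a lipid reagent and kept in 4 µg/ml puromycin for 30 days. Parental cells had neither the plasmid nor the puromycin, and all groups grew in the same serum-containing medium. Each clone differs from Mock in the hairpin and in descending from 1 cell, and these cannot be told apart. The labels do not say whether the arrays of a group came from separate cultures, so each p-value reflects array-to-array spread, which may be technical.

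Aldehyde dehydrogenases oxidise aldehydes to carboxylic acids with NAD or NADP as the electron acceptor. ALDH1A1, ALDH1A2 and ALDH1A3 turn retinaldehyde into retinoic acid, the ligand of the nuclear receptors RARA, RARB and RARG, while other members clear aldehydes from ethanol, lipids, amino acids and amines. High activity in a dye assay for these enzymes is widely used to sort stem-like cells from ovarian and other carcinomas, and that activity is commonly credited to ALDH1A1 and ALDH1A3.

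Values are log2 signals, so a difference of 1 is a 2-fold change. The array medians lay between 4.25 and 4.39, and arrays of one group correlated at 0.996 to 0.998 over all probe sets. The middle 50% of values covered a range of 3.19 to 3.31 on the clone and Parental arrays and 3.38 to 3.43 in Mock. CXCR4, the targeted gene, had log2 values of 7.06, 7.10 and 7.11 in shCXCR4 I, 6.39, 6.73 and 6.75 in shCXCR4 II, 8.51, 8.60 and 8.64 in Mock and 8.42, 8.28 and 8.30 in Parental (probe set 217028_at). It fell by 1.49 ± 0.09 (SE) on the log2 scale in shCXCR4 I and by 1.96 ± 0.09 in shCXCR4 II against Mock (limma, adjusted p = 8.53e-08 and 4.48e-09). Its other probe sets fell less, by 1.07 and 1.24 in shCXCR4 I and shCXCR4 II (211919_s_at) and by 1.12 and 1.38 (209201_x_at), and all passed. Of 11 markers of ovarian carcinoma epithelium, 10 lay above every array median in shCXCR4 I, 9 in shCXCR4 II, 10 in Mock and 10 in Parental. The mean over these markers was 8.10 to 8.12 on the shCXCR4 I arrays, 7.78 to 7.84 on the shCXCR4 II arrays, 8.13 to 8.21 on Mock arrays and 8.05 to 8.09 on Parental arrays. Of them, 2 rose and 2 fell in shCXCR4 I, and 0 rose and 6 fell in shCXCR4 II, against Mock. Over all genes, 8.45% rose and 12.2% fell in shCXCR4 I, and 9.08% rose and 13.5% fell in shCXCR4 II. Between the clones, 6 markers were called higher in shCXCR4 I and 0 lower, where 2.75% of all probe sets were higher and 1.36% lower. The markers were read by 1 probe set per gene. Fitted on that basis, 1413 of 19775 genes were called between the clones. Among probe sets at a mean log2 of at least 6, fitted alone, 2669 of 13342 were. What the marker differences have to do with the values below was not tested. The mean of 6 leukocyte markers was 3.68 to 3.74 in shCXCR4 I, 3.69 to 3.73 in shCXCR4 II, 3.45 to 3.62 in Mock and 3.61 to 3.71 in Parental, below all array medians. Above every array median were 2, 2, 1 and 1 of these 6 in that order of groups, 5 of 9 fibroblast markers and 3 of 5 endothelial markers in each group. Of 5 hepatocyte markers, 4, 4, 3 and 4 lay above every array median in the same order of groups. Over all arrays, the list mean was 4.41 to 4.59 for fibroblast, 4.28 to 4.54 for endothelial and 4.65 to 4.95 for hepatocyte markers.

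The promoters of the retinoic acid producers ALDH1A1 and ALDH1A3, whose RNA moved most among the members, are shown from RefSeq (GRCh38.p14), 250 bases before to 50 after the gene's start. The ALDH1A3 window is chr15:100879581-100879880 on the plus strand and the ALDH1A1 window is chr9:72953004-72953303 on the minus strand. Both run 5′ to 3′ along the gene, and capitals mark matches, on either strand, to the GC box GGGCGG and to the CCAAT box.
ALDH1A3: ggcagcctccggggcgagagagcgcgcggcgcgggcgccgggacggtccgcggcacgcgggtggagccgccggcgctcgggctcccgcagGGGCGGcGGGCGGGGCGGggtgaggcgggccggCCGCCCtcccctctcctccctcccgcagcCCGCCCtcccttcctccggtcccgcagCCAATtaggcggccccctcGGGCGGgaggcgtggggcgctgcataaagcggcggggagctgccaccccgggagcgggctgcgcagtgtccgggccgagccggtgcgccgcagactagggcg
ALDH1A1: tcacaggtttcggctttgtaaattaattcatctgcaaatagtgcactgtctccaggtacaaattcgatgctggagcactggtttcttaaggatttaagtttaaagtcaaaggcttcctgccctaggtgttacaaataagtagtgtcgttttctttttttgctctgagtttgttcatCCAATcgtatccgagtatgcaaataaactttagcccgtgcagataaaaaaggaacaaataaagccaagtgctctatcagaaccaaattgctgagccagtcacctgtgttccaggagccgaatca
The ALDH1A3 window was 81.7% G and C with 46 CpG dinucleotides, and held 6 GC boxes, of which a neighbouring pair shares a base, and 1 CCAAT box. The ALDH1A1 window was 40.3% G and C with 7 CpG, and held 1 CCAAT box and 0 GC boxes. Among 35116 windows of 300 bases the median was 58.7% G and C and 14 CpG; 98.7% of them had a lower G and C share than ALDH1A3 and 11.8% a lower one than ALDH1A1. A GC box stood in 45.0% of all windows and a CCAAT box in 34.6%. The table held 11 windows for 8 of the 10 members. None of these 11 held the letters TATAAA (in 11.5% of all windows), AGGTCA, a core of nuclear receptor elements, (13.8%) or TGACNNNGC, the core of the antioxidant response element (13.3%), on either strand. These are matches of letters in a window and were not measured as binding.

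Across the 10 members, ALDH1A3 was higher and ALDH1A1 lower in both knockdown clones than in either control, and the other members differed by at most 0.61 on the log2 scale in any comparison. A probe set was called at a limma adjusted p under 0.05, with Benjamini-Hochberg adjustment over all 41097 probe sets. In shCXCR4 I against Mock, 3 of the 19 member probe sets rose and 3 fell, 31.6% of them, where 17.6% of all probe sets were called (6.95% up and 10.6% down). In shCXCR4 II against Mock, 1 rose and 3 fell, 21.1%, where 19.4% of all were called (7.75% up and 11.7% down). Against Parental, 4 rose and 2 fell in shCXCR4 I (31.6%, with 12.4% of all called, 5.51% up and 6.89% down), and 3 rose and 4 fell in shCXCR4 II (36.8%, with 12.5% of all called, 4.88% up and 7.65% down). In Mock against Parental, 2 rose and 2 fell, 21.1%, where 10.5% of all were called (6.58% up and 3.9% down). Most member probe sets lay above every array median in every group, and bright probe sets were called more often. Among the 20549 in the upper 50% by mean log2, fitted alone, 7375 were called in shCXCR4 I and 7516 in shCXCR4 II against Mock. Against Parental, 5872 were called in shCXCR4 I, 5749 in shCXCR4 II and 5108 in Mock. The member shares above were not compared at like brightness. The median member difference stayed between -0.03 and 0.08 in these 5 comparisons, and that of all probe sets between -0.002 and 0.02. The clones share the Mock arrays and the Parental arrays, so their comparisons are not independent. Outside the alternative settings given below, none of the 6 members with several probe sets had every probe set called in a comparison. None had calls in opposite directions within one comparison there.

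**Figure D1:**
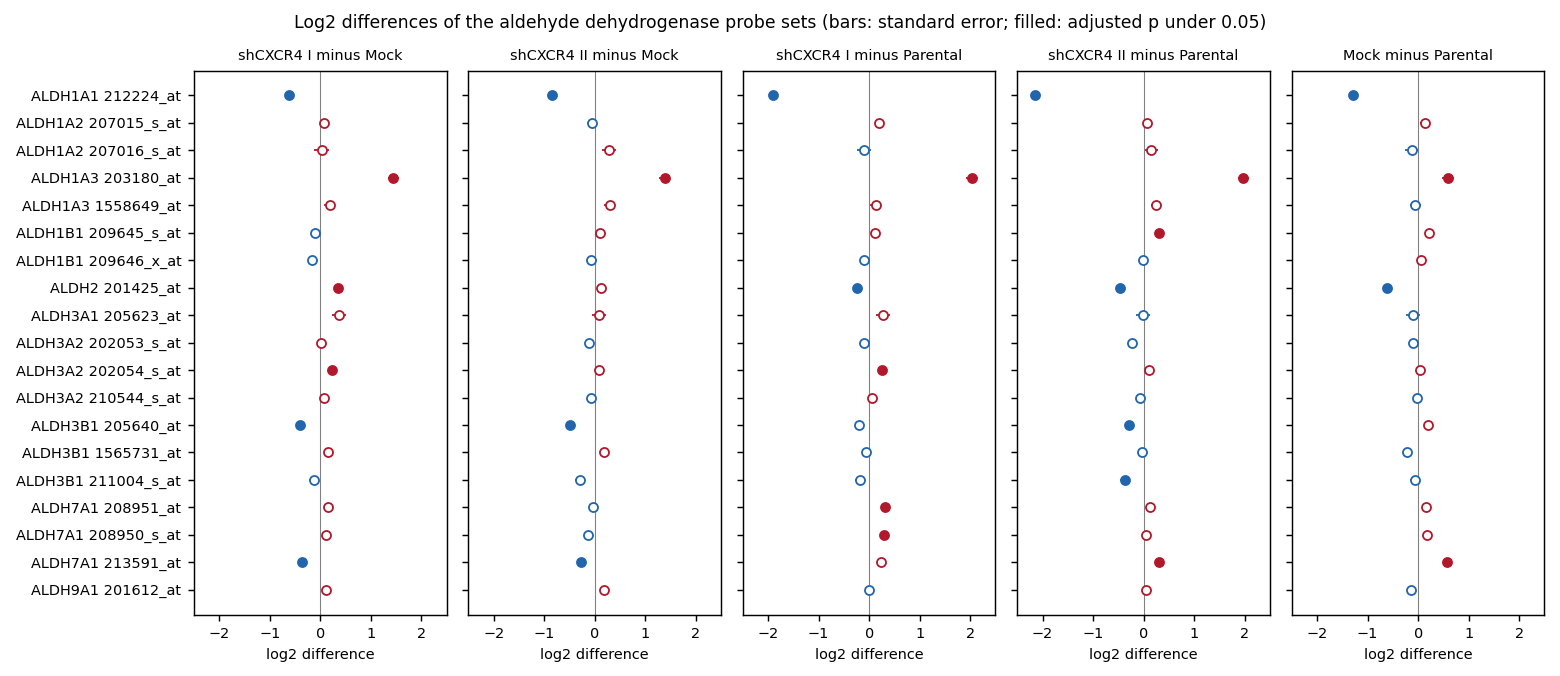
Log2 difference (x axis) of each of the 19 aldehyde dehydrogenase probe sets (rows) in the comparisons of the groups, with limma's standard error as bars; filled points passed at an adjusted p under 0.05. ALDH1A3 203180_at stands to the right of 0 in each clone against Mock and against Parental, ALDH1A1 to the left, and most other probe sets lie close to 0.

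ALDH1A3, a cytosolic enzyme that makes retinoic acid from all-trans retinaldehyde, had log2 values of 6.56, 6.56 and 6.48 in shCXCR4 I, 6.45, 6.56 and 6.40 in shCXCR4 II, 5.12, 5.14 and 4.99 in Mock and 4.82, 4.25 and 4.40 in Parental (203180_at). All 6 clone arrays lay above all 6 control arrays, the clones overlapped each other, and Mock lay above Parental with no overlap. The means were 6.53 ± 0.05, 6.47 ± 0.08, 5.08 ± 0.08 and 4.49 ± 0.30 (SD, n = 3 each) in that order of groups. ALDH1A3 rose by 1.45 ± 0.11 (SE), 2.73-fold, in shCXCR4 I against Mock (limma, adjusted p = 1.43e-06), and by 1.38 ± 0.11, 2.61-fold, in shCXCR4 II (adjusted p = 2.17e-06). Against Parental it was 4.11-fold higher in shCXCR4 I and 3.93-fold higher in shCXCR4 II (limma, adjusted p = 5.33e-08 and 7.64e-08). Ranked by size of rise over all 41097 probe sets, these differences were number 38 and 27 against Mock and number 4 and 2 against Parental, for shCXCR4 I and shCXCR4 II in each pair.

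The plasmid control itself differed in ALDH1A3: it rose by 0.59 ± 0.11 (SE), 1.51-fold, in Mock against Parental (limma, adjusted p = 0.00415). The clones differed from each other by 0.07, with a 95% interval of -0.18 to 0.31 (limma, adjusted p = 0.836). The other ALDH1A3 probe set, 1558649_at, averaged 3.10 ± 0.20 in shCXCR4 I, 3.21 ± 0.05 in shCXCR4 II, 2.92 ± 0.18 in Mock and 2.97 ± 0.10 in Parental (SD, n = 3 each), below every array median. It passed in no comparison. Against Mock it differed by 0.19 in shCXCR4 I and 0.30 in shCXCR4 II (limma, adjusted p = 0.26 and 0.063). The second of these did pass with a replicate block (0.0427) and without shCXCR4 I replicate 3 (0.0424) or Mock replicate 1 (0.0299). Averaging both probe sets, the difference of Mock from Parental was 0.27 and no longer passed (limma, adjusted p = 0.0596), while both clones still passed against both controls, with differences of 0.82 to 1.11.

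**Figure D2:**
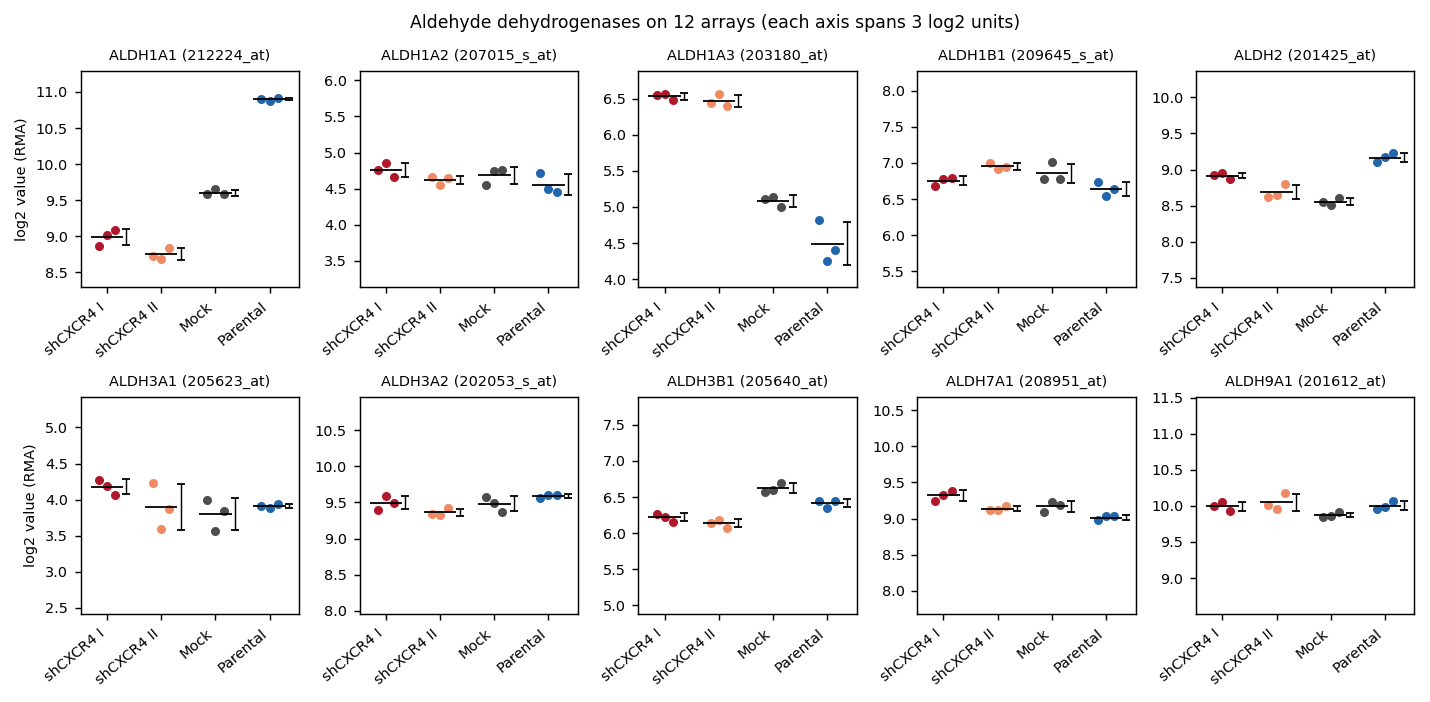
Log2 value (y axis) of each aldehyde dehydrogenase gene, by its probe set with the highest mean, on each of the 3 arrays (points) of shCXCR4 I, shCXCR4 II, Mock and Parental, with the group mean as a line and the SD as a bracket. ALDH1A3 lies above 6.3 on all clone arrays and below 5.2 on all control arrays, and ALDH1A1 is lowest in the clones, higher in Mock and highest in Parental.

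ALDH1A1, the cytosolic retinaldehyde dehydrogenase that also oxidises lipid peroxidation aldehydes, ran the other way and had a single probe set (212224_at). Its log2 values were 8.87, 9.02 and 9.09 in shCXCR4 I, 8.73, 8.68 and 8.84 in shCXCR4 II, 9.58, 9.65 and 9.58 in Mock and 10.91, 10.88 and 10.92 in Parental. No 2 groups overlapped, and the order was shCXCR4 II, shCXCR4 I, Mock and Parental, lowest first. ALDH1A1 fell by 0.62 ± 0.07 (SE) in shCXCR4 I, to 65.2% of Mock, and by 0.85 ± 0.07 in shCXCR4 II, to 55.3% of Mock (limma, adjusted p = 4.98e-05 and 2.48e-06). It fell by 1.30 ± 0.07 in Mock against Parental, to 40.7% (limma, adjusted p = 5.71e-08). Against Parental it stood at 26.6% in shCXCR4 I and 22.5% in shCXCR4 II (limma, adjusted p = 9.11e-10 and 3.33e-10). Among all probe sets ranked by size of fall against Parental, ALDH1A1 was number 27 in shCXCR4 I, 28 in shCXCR4 II and 62 in Mock. The clones differed by 0.24, with an interval of 0.08 to 0.39, and missed the threshold (limma, adjusted p = 0.0853), but passed in 5 of the alternative settings.

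ALDH1A2, the third enzyme of the retinoic acid step and the main one of the early embryo, was low and passed in no comparison. Its brighter probe set, 207015_s_at, averaged 4.76 ± 0.09 in shCXCR4 I, 4.62 ± 0.06 in shCXCR4 II, 4.68 ± 0.12 in Mock and 4.56 ± 0.14 in Parental (SD, n = 3 each), and each clone overlapped both controls. Its other probe set, 207016_s_at, lay at 3.16 to 3.44, below every array median.

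ALDH2, the mitochondrial enzyme that oxidises acetaldehyde from ethanol, had log2 values of 8.92, 8.95 and 8.88 in shCXCR4 I, 8.62, 8.65 and 8.80 in shCXCR4 II, 8.55, 8.52 and 8.60 in Mock and 9.11, 9.17 and 9.22 in Parental (201425_at). Parental was highest and Mock lowest, with no overlap between any groups. ALDH2 fell by 0.61 ± 0.07 (SE) in Mock and by 0.48 ± 0.07 in shCXCR4 II against Parental (limma, adjusted p = 5.08e-05 and 0.000356). Against Mock it rose by 0.36 ± 0.07 in shCXCR4 I (limma, adjusted p = 0.00241), and differed by 0.13 in shCXCR4 II, which did not pass (adjusted p = 0.20). After quantile normalization ALDH2 rose by 0.25 in shCXCR4 II against Mock and passed (limma, adjusted p = 0.0126). It also fell by 0.25 in shCXCR4 I against Parental (limma, adjusted p = 0.0267), a call that was lost without any one array of shCXCR4 I (adjusted p = 0.0712, 0.0529 and 0.101 without replicates 1, 2 and 3) and without Parental replicate 2 (0.0806) or 3 (0.112).

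ALDH1B1, a mitochondrial relative of ALDH2, had log2 values of 6.68, 6.78 and 6.80 in shCXCR4 I, 7.00, 6.91 and 6.95 in shCXCR4 II, 6.78, 7.01 and 6.78 in Mock and 6.73, 6.55 and 6.64 in Parental (209645_s_at). The clone shCXCR4 II lay above Parental on all arrays, and Mock overlapped both clones. It rose by 0.31 ± 0.08 (SE) in shCXCR4 II against Parental (limma, adjusted p = 0.0191), its one call. That call was lost without shCXCR4 II replicate 1 (limma, adjusted p = 0.0639) and without Parental replicate 2 (0.0922) or 3 (0.0598), and when averaging both probe sets (a difference of 0.15, adjusted p = 0.164). The second probe set, 209646_x_at, passed nowhere.

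Among the ALDH3 enzymes, ALDH3B1, which oxidises medium- and long-chain aldehydes at the plasma membrane, was lower in the clones than in Mock at its brightest probe set. This one, 205640_at, had log2 values of 6.27, 6.22 and 6.16 in shCXCR4 I, 6.14, 6.19 and 6.08 in shCXCR4 II, 6.57, 6.60 and 6.70 in Mock and 6.45, 6.35 and 6.45 in Parental. The clones overlapped each other and lay below all control arrays. ALDH3B1 fell by 0.40 ± 0.07 (SE) in shCXCR4 I and by 0.49 ± 0.07 in shCXCR4 II against Mock (limma, adjusted p = 0.000872 and 0.000235). Against Parental it fell by 0.28 in shCXCR4 II (limma, adjusted p = 0.0131, and 0.0581 without Parental replicate 3), and the difference of -0.20 in shCXCR4 I did not pass (adjusted p = 0.07). In shCXCR4 I against Parental, ALDH3B1 did pass in several alternative settings. Among them were 1 probe set per gene (limma, adjusted p = 0.0426), averaged probe sets (0.0487) and array weights (0.0237). Its probe set 211004_s_at fell by 0.36 in shCXCR4 II against Parental (limma, adjusted p = 0.0291), which was lost without shCXCR4 II replicate 1 (0.113) or 2 (0.0876) or Parental replicate 2 (0.134). The probe set 1565731_at ran the other way against Mock, with differences of 0.16 in shCXCR4 I and 0.19 in shCXCR4 II that did not pass (limma, adjusted p = 0.161 and 0.0891) but did without Mock replicate 3 (0.0348 and 0.0202). Averaged over the gene's 3 probe sets, the difference from Mock was -0.12 in shCXCR4 I (limma, adjusted p = 0.0862) and -0.20 in shCXCR4 II (adjusted p = 0.0108).

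ALDH3A2, the fatty aldehyde dehydrogenase of the endoplasmic reticulum whose loss causes Sjögren-Larsson syndrome, was bright and differed little between groups. Its brightest probe set, 202053_s_at, averaged 9.50 ± 0.09 in shCXCR4 I, 9.36 ± 0.05 in shCXCR4 II, 9.48 ± 0.10 in Mock and 9.59 ± 0.02 in Parental (SD, n = 3 each) and passed in no comparison, like 210544_s_at. In shCXCR4 II against Parental, 202053_s_at differed by -0.23 without overlap (limma, adjusted p = 0.0578). That difference passed in several alternative settings, among them 1 probe set per gene (0.0376) and a trended and robust variance (0.00928). The probe set 202054_s_at had 9.13, 9.12 and 9.04 in shCXCR4 I, 9.03, 8.95 and 8.89 in shCXCR4 II, 8.94, 8.77 and 8.91 in Mock and 8.91, 8.79 and 8.84 in Parental. It rose by 0.22 in shCXCR4 I against Mock and by 0.25 against Parental (limma, adjusted p = 0.0415 and 0.029). The first of these was lost without any one array of shCXCR4 I or Parental, without Mock replicate 2 or 3 and without shCXCR4 II replicate 2 (limma, adjusted p = 0.0511 to 0.161). The second was lost without shCXCR4 I replicate 1 or 2 or Parental replicate 2 or 3 (0.0882 to 0.115). ALDH3A1, a major soluble protein of the cornea, lay below every array median in its group means, at 4.18 ± 0.10 in shCXCR4 I, 3.90 ± 0.32 in shCXCR4 II, 3.80 ± 0.22 in Mock and 3.91 ± 0.03 in Parental (205623_at; SD, n = 3 each). It passed in no comparison, and the difference of 0.38 between shCXCR4 I and Mock did not pass (limma, adjusted p = 0.078). That difference did pass with a replicate block (0.0367) and without shCXCR4 II replicate 1 (0.0295) or 2 (0.0414) or Mock replicate 1 (0.0442).

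ALDH7A1, or antiquitin, which acts in lysine breakdown, had log2 values of 9.24, 9.33 and 9.39 in shCXCR4 I, 9.11, 9.12 and 9.17 in shCXCR4 II, 9.09, 9.23 and 9.19 in Mock and 8.97, 9.03 and 9.03 in Parental (208951_at). All shCXCR4 I arrays lay above all others, and all Parental arrays below them. ALDH7A1 rose by 0.31 ± 0.07 (SE) in shCXCR4 I against Parental (limma, adjusted p = 0.00662). The probe set 208950_s_at also rose there, by 0.29 (limma, adjusted p = 0.0209), a call lost without shCXCR4 I replicate 1 or 2 or Parental replicate 1 or 3 (0.0614 to 0.0926). The third probe set, 213591_at, lay below every array median, at 3.54 ± 0.02 in shCXCR4 I, 3.61 ± 0.07 in shCXCR4 II, 3.89 ± 0.13 in Mock and 3.31 ± 0.03 in Parental (SD, n = 3 each). It rose by 0.58 in Mock against Parental (limma, adjusted p = 0.000143). It fell by 0.35 in shCXCR4 I against Mock (limma, adjusted p = 0.00418). The brighter probe sets had no call in either comparison. The fall passed in every alternative that gave a value. After quantile normalization 208951_at rose by 0.23 in shCXCR4 I against Mock and passed (limma, adjusted p = 0.0176), so ALDH7A1 then had calls in both directions. Without that normalization, its rise of 0.15 passed among probe sets averaging 6 or more, fitted alone (limma, adjusted p = 0.0384). In shCXCR4 II, 213591_at fell by 0.28 against Mock and rose by 0.30 against Parental (limma, adjusted p = 0.0171 and 0.0143). The first of those was lost without shCXCR4 II replicate 1 or Mock replicate 1 or 2 (0.0575 to 0.0645), and the second without shCXCR4 II replicate 2 or Parental replicate 2 or 3 (0.0524 to 0.0572).

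ALDH9A1, which oxidises the aldehyde steps on the way to carnitine and to gamma-aminobutyric acid, averaged 9.99 ± 0.06 in shCXCR4 I, 10.05 ± 0.12 in shCXCR4 II, 9.87 ± 0.03 in Mock and 10.00 ± 0.06 in Parental (201612_at; SD, n = 3 each). It passed in no comparison, and its group means spanned 0.17. The difference of 0.17 between shCXCR4 II and Mock (limma, adjusted p = 0.108) passed in some alternatives. These were quantile normalization (0.0109), a mean log2 of at least 6 (0.0362) and a trended and robust variance (0.028).

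Set directly against each other, the clones had 0 of 19 member probe sets called by limma, where 4.11% of all probe sets were (2.75% up and 1.36% down). At an unadjusted p under 0.05, 4 were higher and 1 was lower in shCXCR4 I than in shCXCR4 II. The median member difference was 0.14, against -0.01 for all probe sets. ALDH2 differed by 0.23, with a 95% interval of 0.08 to 0.37 (limma, adjusted p = 0.0846), and passed in 7 of the alternative settings. CXCR4 itself was higher in shCXCR4 I by 0.47 ± 0.09 (SE) on the log2 scale at 1 of its 3 probe sets, 217028_at (limma, adjusted p = 0.009). At the others it differed by 0.17 and 0.26 and did not pass (adjusted p = 0.463 and 0.262).

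The genes whose values followed ALDH1A3 most closely over the 12 arrays were NPNT (Pearson r = 0.978), CRACR2B (0.971), TTC39A (0.967), TMT1B (0.956) and LMBRD2 (0.951), out of 325 genes whose group means spanned at least 1. NPNT, the matrix protein nephronectin, averaged 8.47 in shCXCR4 I, 8.32 in shCXCR4 II, 6.57 in Mock and 6.24 in Parental. Those closest to ALDH1A1 were CCNA1 (0.994), DPYSL2 (0.992), MAL (0.991), CCNG2 (0.987) and CTH (0.987). DPYSL2, a protein of axon guidance, averaged 4.83 in shCXCR4 I, 4.30 in shCXCR4 II, 5.70 in Mock and 7.42 in Parental, the same order as ALDH1A1. CCNA1, a cyclin of the germ line, averaged 5.70 in shCXCR4 I, 5.63 in shCXCR4 II, 6.25 in Mock and 7.07 in Parental. These correlations rest on 4 groups of 3 arrays and were chosen as the highest, so they are a description.

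**Figure D3:**
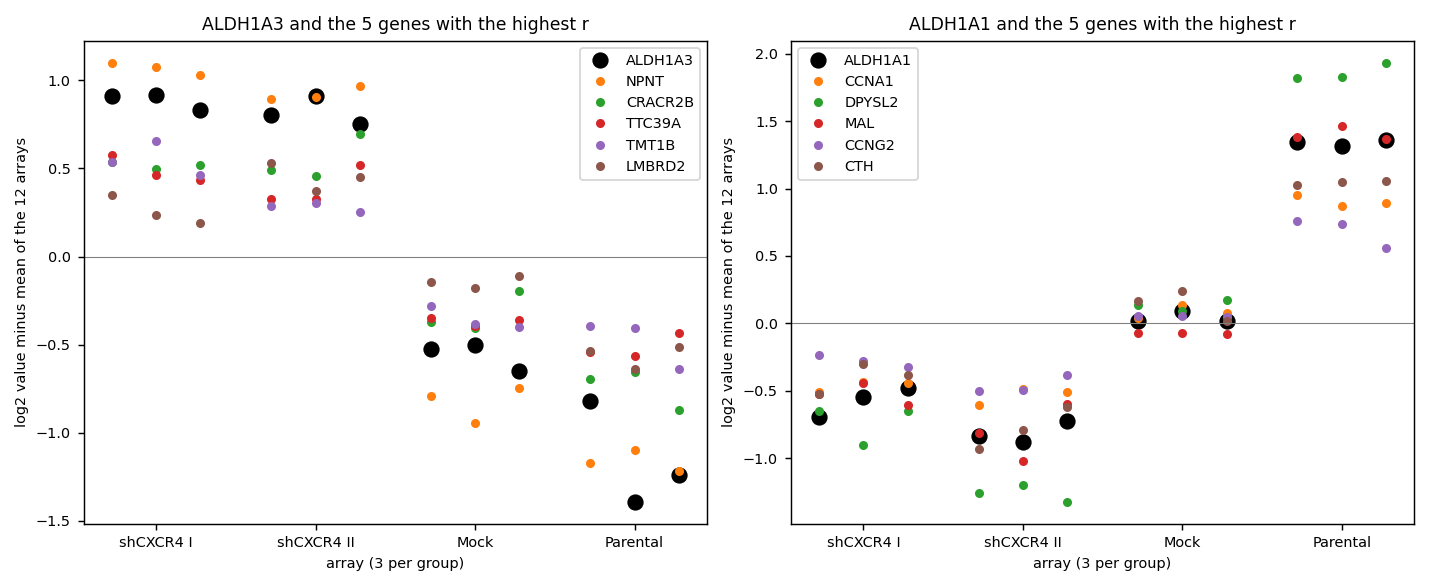
Log2 value less the gene's own mean over 12 arrays (y axis) for ALDH1A3 and the 5 genes most like it, and for ALDH1A1 and the 5 most like it, on each array of shCXCR4 I, shCXCR4 II, Mock and Parental (points). The first set is high on the 6 clone arrays and lowest in Parental, and the second set is highest in Parental and low in the clones.

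The remaining 9 aldehyde dehydrogenases of the human genome on the array were described by 1 probe set a gene, the one with the highest mean, as were the lists that follow. On this basis 20.6% of all 19775 genes were called in shCXCR4 I against Mock (8.45% up and 12.2% down) and 22.5% in shCXCR4 II (9.08% up and 13.5% down). Of the 9, 0 rose and 3 fell in shCXCR4 I against Mock, and 0 rose and 4 fell in shCXCR4 II (limma), and at an unadjusted p under 0.05 also 0 rose. Their median differences were -0.10 and -0.16, against 0.02 for all genes in each clone. Bright probe sets as a whole were also lower, with medians of -0.09 and -0.10 over all those at a mean log2 of at least 6. Of the 9 genes, 7 lay above every array median in Mock. ALDH4A1, of proline breakdown, fell by 0.63 ± 0.07 (SE) in shCXCR4 I and by 0.44 ± 0.07 in shCXCR4 II (limma, adjusted p = 5.7e-05 and 0.00115); averaged over its probe sets the difference in shCXCR4 II was -0.27 (adjusted p = 0.027). ALDH6A1, of valine breakdown, fell by 0.34 and 0.47, and ALDH5A1, the succinic semialdehyde dehydrogenase, by 0.26 and 0.59, in shCXCR4 I and shCXCR4 II. Averaged over its probe sets ALDH5A1 differed by -0.33 in shCXCR4 II (limma, adjusted p = 0.000537). The call of ALDH5A1 in shCXCR4 I (limma, adjusted p = 0.0413) was lost in 12 alternative settings, among them without shCXCR4 I replicate 2 (0.107) or 3 (0.157), Mock replicate 2 (0.112) or 3 (0.123), or Parental replicate 1 (0.0511) or 2 (0.0534). ALDH18A1, of proline synthesis, fell by 0.39 in shCXCR4 II and differed by -0.20 in shCXCR4 I (limma, adjusted p = 0.00118 and 0.0558). In Mock against Parental, 4 of the 9 rose, where 12.5% of all genes were called (8.08% up and 4.41% down). The differences were 0.62 for ALDH1L2, a mitochondrial folate enzyme that lay below every array median in Parental, 0.39 for ALDH4A1, 0.43 for ALDH6A1 and 0.35 for ALDH18A1. Against Parental, 1 rose in shCXCR4 I, and 1 rose and 1 fell in shCXCR4 II, with 14.5% of all genes called in shCXCR4 I (7.06% up and 7.44% down) and 14.4% in shCXCR4 II (6.11% up and 8.33% down).

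On the supply and clearance of retinoids, 17 of 22 listed genes were measured, of which 3 rose and 2 fell in shCXCR4 I, and 3 rose and 4 fell in shCXCR4 II, against Mock. RDH10, which makes the retinaldehyde that the ALDH1A enzymes use, had log2 values of 8.43, 8.44 and 8.36 in shCXCR4 I, 7.78, 7.90 and 8.06 in shCXCR4 II, 9.07, 9.13 and 9.09 in Mock and 8.93, 8.96 and 9.04 in Parental. All clone arrays lay below all control arrays. RDH10 fell by 0.69 ± 0.08 (SE) in shCXCR4 I and by 1.19 ± 0.08 in shCXCR4 II against Mock (limma, adjusted p = 2.91e-05 and 1.51e-07). Averaged over its probe sets it fell by 0.43 and by 0.71 and still passed (limma, adjusted p = 0.000336 and 4.58e-06). DHRS3, which turns retinaldehyde back to retinol, rose by 0.45 ± 0.11 in shCXCR4 I and fell by 0.69 ± 0.11 in shCXCR4 II against Mock (limma, adjusted p = 0.0107 and 0.000632), and the clones differed by 1.14 (adjusted p = 3.43e-05). Its mean in Parental, 6.90, lay close to that in shCXCR4 I, 6.82, while Mock averaged 6.37 and shCXCR4 II 5.68. CRABP2, which carries retinoic acid to its receptors, averaged 7.73 ± 0.03 in shCXCR4 I, 7.77 ± 0.08 in shCXCR4 II, 7.35 ± 0.10 in Mock and 6.55 ± 0.08 in Parental (SD, n = 3 each). It rose by 0.38 and 0.42 in shCXCR4 I and shCXCR4 II against Mock, and by 0.80 in Mock against Parental (limma, adjusted p = 0.0023, 0.00129 and 7.85e-06). BCO1, which cleaves beta-carotene into retinaldehyde, rose by 0.38 and 0.45 in the clones against Mock and fell by 0.57 in Mock against Parental (limma, adjusted p = 0.00288, 0.00112 and 0.000226), with Mock values of 3.97 to 4.17, below every array median.

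Among the receptors of retinoic acid and their partners, 10 of 13 were measured; 0 rose and 2 fell in shCXCR4 I against Mock (2 and 4 at an unadjusted p under 0.05, limma), and 1 rose and 3 fell in shCXCR4 II. RXRB, a partner of the retinoic acid receptors, fell by 0.36 ± 0.07 (SE) and 0.28 ± 0.07 in shCXCR4 I and shCXCR4 II (limma, adjusted p = 0.00209 and 0.0104). Averaged over its probe sets RXRB differed by -0.14 in shCXCR4 II and no longer passed (limma, adjusted p = 0.139), nor did it there in a fit of only these groups (0.0573). The coactivator NCOA2 fell by 0.35 ± 0.09 in shCXCR4 I and by 0.61 ± 0.09 in shCXCR4 II (limma, adjusted p = 0.0165 and 0.000433), the first of which was lost without shCXCR4 I replicate 3 (0.0733) or Mock replicate 3 (0.0664). Averaged over its probe sets, NCOA2 differed by -0.18 in shCXCR4 I and -0.30 in shCXCR4 II (limma, adjusted p = 0.051 and 0.00303). At its brightest probe set it averaged 7.88 in shCXCR4 I, 7.61 in shCXCR4 II, 8.22 in Mock and 7.91 in Parental. The corepressor NRIP1 fell by 0.55 in shCXCR4 II (limma, adjusted p = 0.000598) and differed by -0.20 in shCXCR4 I (adjusted p = 0.126). RARG, a receptor, rose by 0.43 in shCXCR4 II (limma, adjusted p = 0.0139), a call lost without shCXCR4 II replicate 2 (0.0667) or Mock replicate 2 (0.057) or 3 (0.0556), in a fit of only these groups (0.053) and averaged over its probe sets (a difference of 0.18, adjusted p = 0.107).

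Of 16 genes known to respond to retinoic acid, 11 were measured. Against Mock, 3 rose and 2 fell in shCXCR4 I, and 3 rose and 4 fell in shCXCR4 II. Calls were fewer against Parental: 1 rose and 0 fell in shCXCR4 I, and 1 rose and 2 fell in shCXCR4 II. Of all genes, 14.5% and 14.4% were called there. TGM2, a transglutaminase induced by retinoic acid in many cells, had log2 values of 8.41, 8.28 and 8.35 in shCXCR4 I, 7.34, 7.25 and 7.43 in shCXCR4 II, 8.97, 9.27 and 9.48 in Mock and 8.61, 8.77 and 8.59 in Parental. Each clone lay below both controls, and shCXCR4 II was lowest. TGM2 fell by 0.90 ± 0.11 (SE) in shCXCR4 I and by 1.90 ± 0.11 in shCXCR4 II against Mock (limma, adjusted p = 6.37e-05 and 4.19e-08). HOXB1, an early target of retinoic acid in the hindbrain, rose by 0.47 in shCXCR4 I and 0.55 in shCXCR4 II (limma, adjusted p = 0.0282 and 0.0129). The first was lost without shCXCR4 I replicate 1 (0.0935) or 3 (0.0963) or Mock replicate 2 (0.0682) or 3 (0.104), and the second without shCXCR4 II replicate 2 (0.0628) or Mock replicate 3 (0.0521). Averaged over its probe sets HOXB1 differed by 0.29 and 0.36 (limma, adjusted p = 0.0313 and 0.0103), and its Mock values, 4.09 to 4.44, lay near the array medians. CRABP2 and DHRS3 belong to this list as well.

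Among 18 measured of 20 alcohol dehydrogenases and aldehyde reductases, which handle the same aldehydes by other reactions, 0 rose and 4 fell in each clone against Mock (limma; at an unadjusted p under 0.05, 1 rose in shCXCR4 I and 0 in shCXCR4 II). AKR1C2, a reductase of steroids and aldehydes, fell by 0.69 ± 0.10 (SE) in shCXCR4 I and by 0.67 ± 0.10 in shCXCR4 II (limma, adjusted p = 0.000224 and 0.000358); averaged over its probe sets the difference in shCXCR4 I was -0.45 (adjusted p = 0.000369). AKR1B10, which reduces retinaldehyde among others, averaged 2.80 in shCXCR4 I, 2.62 in shCXCR4 II, 3.34 in Mock and 3.07 in Parental, below every array median, where signal over background is small. The differences from Mock were -0.54 and -0.73 (limma, adjusted p = 0.018 and 0.00327). The call of AKR1B10 in shCXCR4 I was lost without its replicate 2 (0.0502) or 3 (0.0546) or Mock replicate 2 (0.0772). AKR1C1 fell by 0.60 and 0.56 (limma, adjusted p = 0.00491 and 0.00729), but averaged over its probe sets the differences were -0.17 and -0.12 and did not pass (0.075 and 0.192). AKR1C1 and AKR1C2 are near-identical copies, so the probe sets may read both. AKR7A2, a reductase of succinic semialdehyde, fell by 0.43 and 0.27 (limma, adjusted p = 0.00323 and 0.0385), the second of which was lost without replicate 1 (0.136) or 2 (0.0804) of shCXCR4 II, replicate 2 (0.129) or 3 (0.0996) of Mock or replicate 1 (0.0514) of Parental. It averaged 8.42 in shCXCR4 I, 8.58 in shCXCR4 II, 8.85 in Mock and 8.63 in Parental.

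Of 15 genes used to mark stem-like ovarian cancer cells besides aldehyde dehydrogenase, 13 were measured, and 4 rose and 0 fell in shCXCR4 I (limma; 6 and 0 at an unadjusted p under 0.05), and 3 rose and 2 fell in shCXCR4 II, against Mock. KIT, a receptor tyrosine kinase, averaged 4.41 in shCXCR4 I, 4.39 in shCXCR4 II, 3.57 in Mock and 6.54 in Parental, so that Mock lay below every array median and the clones close to the highest one. The size of a difference from so low a value is uncertain. It rose by 0.83 ± 0.11 (SE) and 0.81 ± 0.11 in shCXCR4 I and shCXCR4 II against Mock (limma, adjusted p = 0.000168 and 0.000234). Against Parental, KIT fell by 2.13 in shCXCR4 I, 2.15 in shCXCR4 II and 2.97 in Mock (limma, adjusted p = 2.49e-08, 2.27e-08 and 9.55e-10). KLF4, a transcription factor of pluripotency, rose by 0.96 ± 0.09 in shCXCR4 I (limma, adjusted p = 5.58e-06), or by 0.54 averaged over its probe sets (adjusted p = 3.13e-05). In shCXCR4 II it rose by 0.28 (limma, adjusted p = 0.0382), which was lost without any one array of shCXCR4 II (0.0546 to 0.126) and without Mock replicate 1 (0.129) or 3 (0.0559), and averaged over its probe sets (a difference of 0.12, adjusted p = 0.18). At its brightest probe set KLF4 averaged 6.56 in shCXCR4 I, 5.89 in shCXCR4 II, 5.61 in Mock and 5.92 in Parental. ALCAM, an adhesion molecule, fell by 0.45 and NES, the filament protein nestin, rose by 0.40 in shCXCR4 II (limma, adjusted p = 0.000477 and 0.00429); averaged over its probe sets the difference of NES was 0.24 (adjusted p = 0.0306). In shCXCR4 I, ALCAM differed by -0.13 and NES by 0.19, and neither passed (limma, adjusted p = 0.209 and 0.133).

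**Figure D4:**
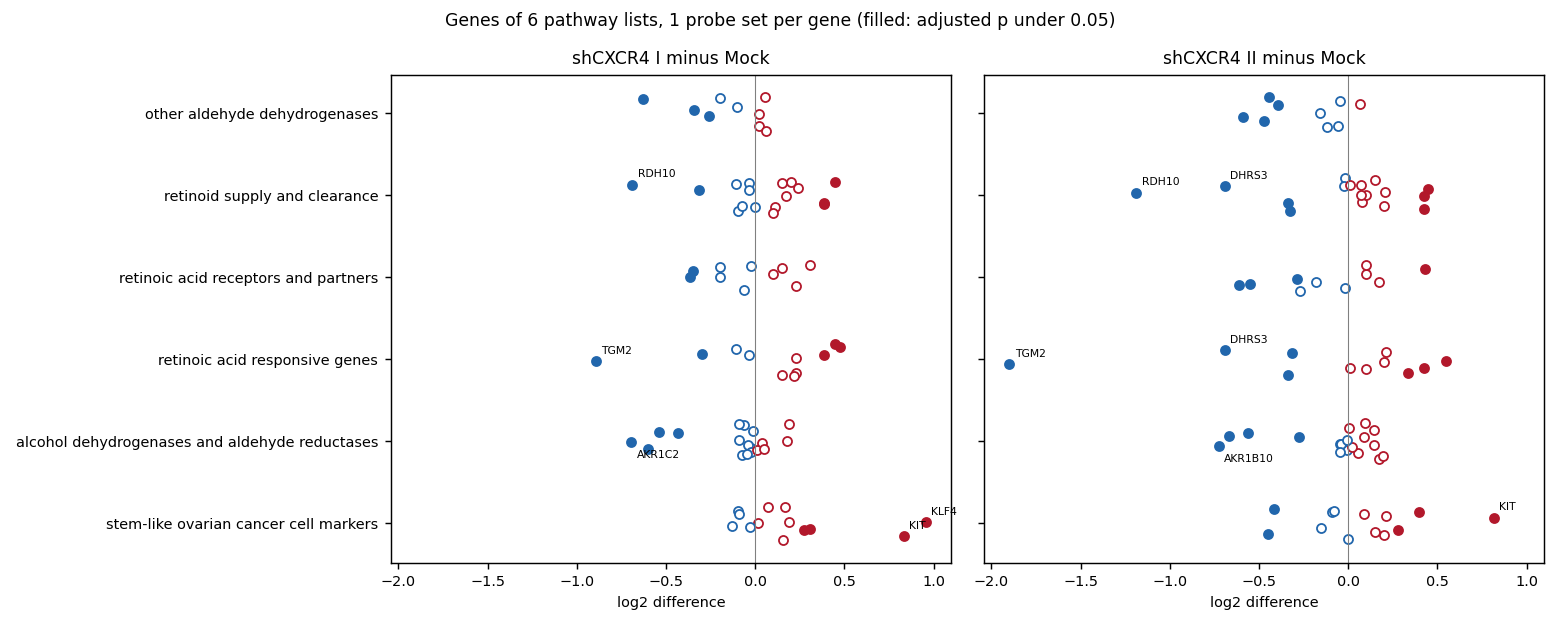
Log2 difference from Mock (x axis) of each measured gene of 6 lists, by its probe set with the highest mean, in shCXCR4 I and shCXCR4 II; filled points passed limma at an adjusted p under 0.05. The genes spread on both sides of 0 in most lists, and the filled points of the other aldehyde dehydrogenases and of the alcohol dehydrogenases and reductases all lie below 0.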

How the data were processed

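The authors deposited log2 values, 1 for each probe set on each array. Per the submitters' processing notes RMA was run, under R 2.6.0; the chip definition file is not given in the sources used here. Per the labels' protocols, 6 µg of total RNA per array was used. No further normalization was applied, and 0 columns were left unused. Of the probe sets, 1801 have several symbols, and 11777 none, 62 of them controls, and these were not tested.

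All 41097 single-symbol probe sets were fitted in R 4.3.3 by the lmFit and eBayes steps of limma 3.58.1 (1 mean per group, 12 arrays, 8 residual degrees of freedom), with Benjamini-Hochberg adjustment per comparison. The code was tested on simulated data. A gene is represented by its probe set with the highest mean. The members and lists were chosen with earlier results of these data known. Named are the 10 members, CXCR4, up to 4 genes per list with the largest mean difference of the clones from Mock among those called in either, and the 5 genes most correlated with ALDH1A3 and with the other most variable member. Alternatives covered the choice of probe sets, filters on dim ones, normalization, variance model, array weights, a 2-group fit, a replicate block, adjusted p under 0.01 and leaving out each array. The number of arrays limits the precision. Figures were drawn with matplotlib 3.10.9 under Python 3.11.15 (numpy 2.4.6, pandas 2.3.3).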

Additional observations from a re-analysis of the deposited data

Results flagged for a closer look

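For 43 of the genes named here, 52 probe sets were counted. These were every probe set of the 10 aldehyde dehydrogenases described above and the brightest of each other gene, for CXCR4 217028_at. Of them, 10 differed between shCXCR4 I and shCXCR4 II, so their differences from the shared Mock arrays were unequal. All 10 were higher in shCXCR4 I. Over all probe sets 4.11% differed, 2.75% higher and 1.36% lower. Bright probe sets differed between the clones more often. Fitted alone, 2673 of the 20549 in the upper 50% by mean log2 were called, and 2669 of the 13342 at a mean log2 of at least 6. The 52 probe sets were not compared at like brightness. Genes of the lists were named for their difference from Mock in the clones, and none of the 10 is one of the 10 aldehyde dehydrogenases described above. Of genes of retinoid supply and response, DHRS3 differed by 1.14, TGM2 by 1.01, RDH10 by 0.50 and NRIP1 by 0.35 on the log2 scale (limma, adjusted p = 3.43e-05, 0.000104, 0.00192 and 0.0331). Of the remaining aldehyde dehydrogenases, ALDH5A1 differed by 0.33 (limma, adjusted p = 0.0329). Of the stem-like markers, KLF4 differed by 0.68 and ALCAM by 0.32 (limma, adjusted p = 0.000533 and 0.0162). Of the genes that followed ALDH1A1, DPYSL2 differed by 0.52 and CTH by 0.38 (limma, adjusted p = 0.00169 and 0.0284). CXCR4 differed by 0.47 at 217028_at (limma, adjusted p = 0.009), while 211919_s_at (0.17, adjusted p = 0.463) and 209201_x_at (0.26, adjusted p = 0.262) did not pass.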

How the results depend on the processing

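No called result changed sign in the alternatives. ALDH1A3 passed in both clones against Mock, at 0.82 to 1.48 and 0.84 to 1.42, and against Parental, at 1.08 to 2.21 and 1.11 to 2.14, in all 23 alternatives that gave a value (limma, highest adjusted p = 5.16e-05). At a mean log2 of at least 6 it has no value, since its mean is lower. Its difference of Mock from Parental was 0.27 with both probe sets averaged (limma, adjusted p = 0.0596). Of 27 called member differences, 16 passed in every alternative that gave a value and 11 were lost in some. Dim probe sets have no value under the filters. Of 87 not called, 22 passed in some. The 6 member calls of shCXCR4 I against Mock were 3 when each gene's probe sets were averaged, and the 4 of shCXCR4 II were 7 after quantile normalization. Against Parental, the 6 of shCXCR4 I were 3 at an adjusted p under 0.01 and 3 to 7 when each array was left out in turn, with 3 without shCXCR4 I replicate 1 or 2 or Parental replicate 3. The 7 of shCXCR4 II were 4 with averaged probe sets, 3 at an adjusted p under 0.01 and 4 to 8 leaving out arrays, with 4 without Parental replicate 2 or 3. The 0 calls between the clones were 1 with 1 probe set per gene, 2 with averaged probe sets, 4 at a mean log2 of at least 6, 3 in the upper 50% by mean, 4 with a trended and robust variance, 2 with array weights and 0 to 2 leaving out arrays, with 2 without shCXCR4 II replicate 3. The filters test fewer probe sets. Of same-numbered pairs of arrays, 1 of 18 correlated above 0.1 in their deviations, and 5 of 36 differently numbered pairs did. With 3 arrays per group this cannot show whether the replicate numbers pair the samples. With a replicate block the counts were 7, 5, 6, 7, 4 and 0, against 6, 4, 6, 7, 4 and 0 without it, in the order of comparisons used above. Probe sets below the array medians, such as ALDH3A1, carry little signal over background.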
